A study of Mus musculus with 6 samples.

Results

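Small heat shock proteins are compact chaperones built around the alpha-crystallin domain. They hold unfolding proteins in solution without using ATP, until chaperones of the Hsp70 class refold them or hand them on for degradation. Alpha A and alpha B crystallin, which were first known as proteins of the lens, belong to the same family, and several of its members are known for induction by heat and injury and for binding to actin and intermediate filaments. The 9 genes described here are Hspb1, Hspb2, Hspb3, Hspb6, Hspb7, Hspb8, Hspb11, Cryaa and Cryab, which were found by symbol among the 24060 genes of the count table. Of these 9 genes, 6 had enough reads to enter the fit across genes and 3, Hspb2, Cryaa and Cryab, did not.

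Retinal ganglion cells (RGCs), the neurons whose axons form the optic nerve, were compared between embryonic day 18 (E18), when they extend axons readily, and postnatal day 5 (P5), when much of that capacity is gone. Both groups came from C57BL/6 mice with no transgene or treatment named. After papain dissociation, macrophages were removed with antibodies and RGCs were then held on dishes coated with antibody to Thy1 (CD90). There were 3 samples of each age, numbered 1, 3 and 4 at E18 and 6, 8 and 9 at P5, and the labels do not say whether each came from separate litters or how many animals were pooled, so that p-values below measure the spread between these samples, which may be technical. E18 replicate 1 has 2 and 5 as well as 1 in the name of its counts.

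The depth of the samples ran from 81213639 to 114512853 counted reads. Levels are given as CPM, the reads of a gene scaled to a common library size after correction for composition. The RGC marker Rbpms was present at both ages, at 293 ± 23.7 CPM at E18 and 315 ± 21.5 CPM at P5 (SD, n = 3 each). The 15 genes of the RGC list, led by Tubb3 and Nefl, summed to between 10194 and 11705 CPM at E18 and between 10212 and 11325 CPM at P5. Of all 16449 genes tested, 7135 passed an adjusted p of 0.05 in edgeR's quasi-likelihood test, which is 43.4%. In the RGC list 4 genes passed as higher at E18 and 5 as lower. Isl1 was higher, at 557 ± 52.0 against 260 ± 51.0 CPM at P5. Thy1, whose antibody held the cells, was lower, at 247 ± 56.2 against 553 ± 120 CPM. E18 replicates 1 and 3 had higher levels of amacrine genes such as Tfap2b and Gad1 than the other samples, and replicate 1 of the genes of dividing cells, with the values given beside the marker lists. In bulk samples such as these, fewer cells of a type and less RNA per cell cannot be told apart.

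Hspb1 encodes the small heat shock protein known as Hsp25 in mouse and Hsp27 in human, an actin-capping chaperone found in many stressed cells. Its gene lies at chr5:135887919-135889563 on the plus strand of mm10. At E18 it was counted 180, 175 and 157 times in replicates 1, 3 and 4, or 2.17, 1.56 and 1.73 CPM. At P5 it was counted 2706, 1418 and 4018 times in replicates 6, 8 and 9, or 30.5, 14.4 and 42.7 CPM. Every P5 sample therefore stood above every E18 sample, and the lowest P5 sample was still several times the highest at E18. The mean was 1.82 ± 0.314 CPM at E18 and 29.2 ± 14.2 CPM at P5 (SD, n = 3 each), and the fitted log2 fold change of E18 over P5 was −4.01 ± 0.378 (SE), which is 16.1-fold higher at P5. Ranked from the most negative fold change, Hspb1 was in place 3 among the 9725 genes whose mean reached 10 CPM and in place 49 among all genes tested. The 9 genes were chosen by name and with their E18 and P5 counts already known, so these values stand as a description and no p-value is given for them.

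**Figure D1:**
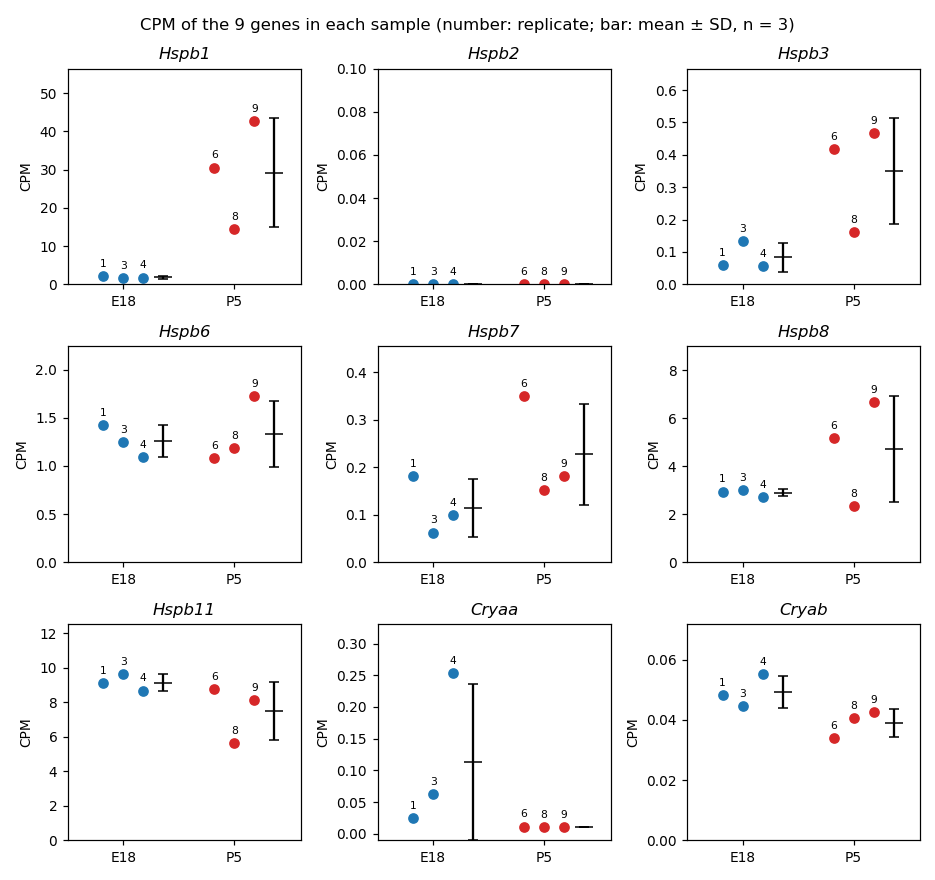
CPM of each of the 9 genes (vertical axis, a separate scale for each gene) in the 3 E18 samples (blue) and the 3 P5 samples (red), with the replicate number above each point and the mean ± SD (n = 3) as a black bar beside each group. For Hspb1 the E18 samples lie between 1.56 and 2.17 CPM and the P5 samples between 14.4 and 42.7 CPM, while for Hspb6, Hspb7, Hspb8 and Hspb11 the groups overlap, and Hspb2 is at 0 throughout.

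The promoter of Hspb1 was examined for the element that heat shock factors bind, an array of inverted GAA units. In the RefSeq window from 250 bases before to 50 bases after the start site (GRCm38.p6, the assembly of mm10), units facing head to head, GAANNTTC, occurred at 2 places in Hspb1, beginning 117 and 97 bases before the start. The same letters occurred in the windows of Hspb3, Hspb6 and Hspb8, so that 4 of the 8 windows available for 7 of the genes held a match, against 7.86% of all 32851 windows. The matches are shown because they are the heat shock letters that the members share, each in the direction of its gene from 5′ to 3′ with the matched letters in capitals:
Hspb1, distal match: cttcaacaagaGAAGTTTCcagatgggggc
Hspb1, proximal match: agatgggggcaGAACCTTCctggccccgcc
Hspb8: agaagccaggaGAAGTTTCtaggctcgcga
Hspb6: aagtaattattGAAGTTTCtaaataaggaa
Hspb3: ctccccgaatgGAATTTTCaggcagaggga
These stretches lie at chr5:135887791-135887820 and chr5:135887811-135887840 for Hspb1 and at chr7:30553170-30553199 for Hspb6, on the plus strand. They lie at chr5:116422844-116422873 for Hspb8 and at chr13:113663882-113663911 for Hspb3, on the minus strand. The match begins 120 bases before the start in Hspb6, 224 bases before it in Hspb3 and 2 bases after it in Hspb8.

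The distal Hspb1 match, the Hspb6 match and the Hspb8 match share the 8 letters GAAGTTTC, and the Hspb3 and proximal Hspb1 matches carry other letters between the same ends. The full element of 3 units, which adds a further GAA after 2 more bases of any kind, was in none of the 8 windows and in 0.603% of all windows. With 1 mismatch allowed it was in 3 of them, those of Hspb1, Hspb3 and Hspb6, each overlapping a match shown above, and in 7.22% of all windows. The tail to tail pair, TTCNNGAA, was in none of the 8 windows and in 8.52% of all windows. The TATA box, TATAAA, was in the windows of Hspb3 and Hspb6 and in 13.6% of all windows, and these letters were not in the window of Hspb1. All motifs were sought on both strands, and a match is a description of letters, not a site shown to be bound.

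Hspb8 encodes the small heat shock protein that works with the co-chaperone Bag3 and Hsp70 to send damaged proteins to autophagy. Its gene is at chr5:116408491-116422864 on the minus strand. Hspb8 stood at 2.94, 3.00 and 2.72 CPM in the E18 samples and at 5.15, 2.33 and 6.65 CPM in P5 replicates 6, 8 and 9. The E18 values were close together, and P5 replicate 8 lay below all of them, so the groups overlapped. The log2 fold change was −0.71 ± 0.338, and it was −1.05 without P5 replicate 8 and −0.38 without P5 replicate 9. Its partner Bag3 was low, at 0.226 ± 0.0792 CPM at E18 and 0.459 ± 0.304 CPM at P5 (SD, n = 3 each), and did not pass the test (fitted log2 value −1.03, with an adjusted p of 0.131 in edgeR).

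Hspb3 and Hspb7 are known from heart and skeletal muscle, and Hspb6, also called Hsp20, from muscle of all kinds. Hspb3, at chr13:113662896-113663676, was counted 5, 15 and 5 times at E18 and 37, 16 and 44 times at P5. The groups did not overlap, but P5 replicate 8 was above E18 replicate 3 by only 1 read before scaling, at 0.163 against 0.134 CPM. The log2 fold change was −2.01 ± 0.539, from 0.0831 ± 0.0440 CPM at E18 to 0.349 ± 0.164 CPM at P5 (SD, n = 3 each).

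Hspb7, at chr4:141420779-141425311, was counted 15, 7 and 9 times at E18 and 31, 15 and 17 times at P5, with a log2 fold change of −1.01 ± 0.521. P5 replicate 6 was the highest sample, and the CPM of P5 replicates 8 and 9 lay within the E18 range. Hspb6 gave 1.42, 1.25 and 1.09 CPM at E18 and 1.08, 1.19 and 1.72 CPM at P5. The log2 fold change of Hspb6 was −0.09 ± 0.260, and its highest and lowest samples were both at P5. Of its exonic bases 8.79% are shared with other annotated genes, among them Lin37 and Proser3 on the other strand, and their part in its counts was not tested.

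Markers of skeletal and cardiac muscle were low. The 10 genes of that list summed to between 9.02 and 10.8 CPM at E18 and between 11.5 and 13.8 CPM at P5, and most of the sum was Acta1 with 5.66 ± 0.541 and 7.70 ± 1.00 CPM (SD, n = 3 each). Desmin, the intermediate filament of muscle, was at 0.0623 ± 0.00825 CPM at E18 and 0.106 ± 0.0976 CPM at P5 (SD, n = 3 each). In edgeR's test 1 of the 6 tested genes of the list, Tnnc2, was higher at E18 and 1, Tnnt2, was lower.

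**Figure D2:**
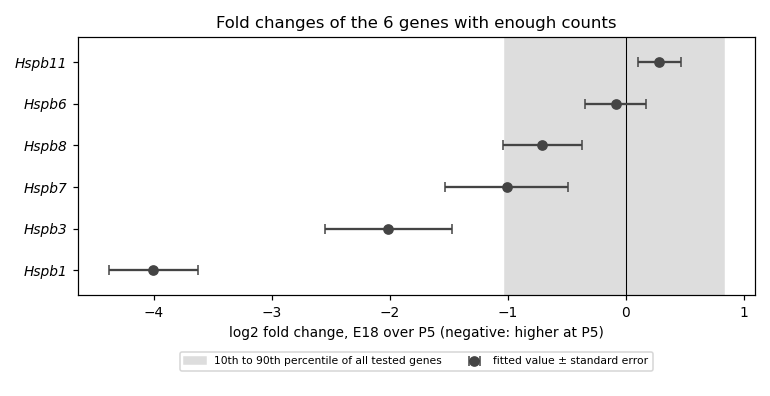
Fitted log2 fold change of E18 over P5 (horizontal axis, negative when higher at P5) with its standard error for the 6 genes that entered the fit, against the band between the 10th and the 90th percentile of all 16449 tested genes. Hspb1 at −4.01 and Hspb3 at −2.01 lie outside the band, which runs from −1.02 to 0.84, while Hspb6, Hspb7, Hspb8 and Hspb11 have values within it.

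Of the 6 genes that entered the fit, 2, Hspb1 and Hspb3, were past its threshold, against the 43.4% of all tested genes that were. Hspb3 was no longer past it without E18 replicate 1, without E18 replicate 4, without P5 replicate 6 or without P5 replicate 9, which left 1 gene. Both were lower at E18, as were 22.5% of all tested genes, and none was higher at E18, as were 20.8%. These counts support nothing, since the choice of the genes used the same contrast. The 6 log2 fold changes ran from −4.01 to 0.28 with a median of −0.86, where the median of all tested genes was near 0, and 5 of the 6 were negative. Every E18 sample was below every P5 sample in 2 of the 6, Hspb1 and Hspb3, and in 28.5% of all tested genes, and groups without overlap in either direction made up 56.1% of all tested genes.

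Hspb11, also named Ift25, carries the family name but serves as a subunit of the intraflagellar transport complex B, the IFT-B train that moves cargo along cilia. Its gene lies at chr4:107253593-107279938. Hspb11 stood at 9.13, 9.62 and 8.67 CPM at E18 and at 8.78, 5.61 and 8.14 CPM at P5. Only P5 replicate 8 stood well apart from the rest, and P5 replicate 6 lay within the E18 range. The log2 fold change was 0.28 ± 0.182, and it was 0.09 without P5 replicate 8.

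The 16 other IFT-B genes that were listed were all measured, with a median log2 fold change of −0.03. By edgeR 1 of them was higher at E18 and 1 was lower. Ift46 stood at 53.7 ± 1.85 CPM at E18 and 44.8 ± 2.72 CPM at P5 (SD, n = 3 each), with a log2 fold change of 0.26 ± 0.0903 (SE) and an adjusted p of 0.0438 in edgeR. Ift57 stood at 18.5 ± 0.242 and 24.0 ± 1.89 CPM, with a log2 fold change of −0.37 ± 0.104 (SE) and an adjusted p of 0.0202 in edgeR. Neither call held in every refit with a sample left out. Ift27, which forms a pair with Hspb11 in the complex, was at 12.6 ± 0.318 and 14.1 ± 1.14 CPM and did not pass (log2 fold change −0.16, adjusted p = 0.304 in edgeR).

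The alpha crystallins were close to the limit of detection. Cryaa, the gene of alpha A crystallin, lies at chr17:31677807-31681733 and was counted 2, 7 and 23 times at E18 and once in each P5 sample. Most of its E18 reads came from replicate 4. The 32 reads against 3 gave a ratio of 10.5 after scaling, with a 95% exact binomial interval from 3.28 to 53.6 that covers counting error only. Without E18 replicate 4 the reads were 9 against 3, and the ratio was 4.32 with an interval from 1.08 to 24.8. Of its exonic bases 13.2% are shared with a gene annotated on the other strand, AC090881.2, whose part in the counts was not tested.

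Cryab, the alpha crystallin made in many tissues beside the lens, was counted 4, 5 and 5 times at E18 and 3, 4 and 4 times at P5. The ratio of the 14 to the 11 reads was 1.25 after scaling, with a 95% exact binomial interval from 0.528 to 3.05, so no difference was detectable at this depth. Hspb2, a partner of Hspb3 in muscle, had no read in any of the 6 samples, which allows a level of up to 0.0268 to 0.0362 CPM per sample at a limit of 3 reads. The gene of Hspb2 at chr9:50751078-50752354 and that of Cryab at chr9:50751325-50756636 lie on opposite strands and overlap by 252 exonic bases, which are 30.2% of those of Hspb2 and 17.0% of those of Cryab. The part of that overlap in the counts was not tested.

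The other lens proteins were low as well. Of the 14 beta and gamma crystallin genes, only 4 had enough reads to be tested, and the whole list summed to between 0.751 and 0.883 CPM at E18 and between 0.904 and 1.67 CPM at P5. Cryba1 was higher at E18, at 0.427 ± 0.123 against 0.139 ± 0.0294 CPM (SD, n = 3 each, adjusted p = 0.00845 in edgeR). Cryba4 was lower, at 0.0301 ± 0.0198 against 0.222 ± 0.121 CPM (adjusted p = 0.00921 in edgeR), and so was Crybb3, at 0.162 ± 0.0418 against 0.505 ± 0.107 CPM (adjusted p = 0.00632 in edgeR). E18 replicate 4, which held most of the Cryaa reads, had the lowest beta and gamma crystallin sum of all samples, 0.751 CPM. It also had the lowest sum of the 8 lens cell markers, 4.74 CPM, where the other samples lay between 4.84 and 7.40 CPM. Single genes differed: among the E18 samples replicate 4 was highest in Bfsp1 and Hsf4, at 2.47 and 0.707 CPM, and in Lim2, with 2 reads. It was lowest in Birc7, Mip and Bfsp2, with Birc7 at 0.387 CPM against 1.24 and 1.93 CPM in replicates 1 and 3. Of the beta and gamma crystallins it was lowest in Cryba1 and Crybb3, at 0.320 and 0.121 CPM. It was highest in Crybb1, Cryba2, Cryga, Crygd, Cryge and Crygn, with 10 reads of Crygn and 3 or fewer of each other. It had no read of Crygb or Crygc, and lay between the other E18 samples in Cryba4 and Crygf. The source of the Cryaa reads was not tested. Of the 6 lens markers tested, 1 was higher and 1 lower at E18 by edgeR, and the lens membrane genes Lim2 and Gja3 had means under 0.02 CPM at either age.

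Levels were compared between the genes as CPM per kilobase of transcript. At E18 Hspb11 was the highest with 15.0 ± 0.784, followed by Hspb1 with 2.02 ± 0.348, Hspb8 with 1.59 ± 0.0816 and Hspb6 with 0.921 ± 0.121 (SD, n = 3 each), and no 2 neighbours among these 4 overlapped between samples. Below them each of Hspb3, Cryaa, Cryab and Hspb7 overlapped with its neighbour in the order, all under 0.21, and Hspb2 was last.

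At P5 the first 2 places were exchanged. Hspb1 led with 32.4 ± 15.7 and Hspb11 followed with 12.3 ± 2.76 CPM per kilobase, and the lowest Hspb1 sample, at 16.0, was above the highest Hspb11 sample, at 14.4. Hspb8 followed with 2.59 ± 1.21, Hspb6 with 0.977 ± 0.251 and Hspb3 with 0.447 ± 0.210. Hspb7, Cryab, Cryaa and Hspb2 came last, in that order, and the samples of Hspb8 and Hspb6 came as near as 1.28 and 1.26 without overlap. The length of Hspb11 depends on the transcript chosen, and with its longest one the mean was 6.08 at E18 and 4.999 at P5, with Hspb1 in the same place at each age.

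By these lengths Hspb1 made up 8.47% to 11.8% of the summed level per kilobase of the 9 genes at E18 and 57.7% to 71.3% at P5. The share of Hspb11 ran from 74.0% to 77.5% at E18 and from 20.2% to 33.4% at P5. With the longest transcript of each gene Hspb1 made up 15.8% to 21.3% at E18 and 72.3% to 81.2% at P5, and Hspb11 55.5% to 60.2% and 9.58% to 17.4%. The E18 share of Hspb1 thus depends on the transcripts chosen, while in both cases its share was higher in every P5 sample than in any E18 sample. The summed level itself was 20.3, 20.4 and 18.9 CPM per kilobase in E18 replicates 1, 3 and 4 and 52.6, 27.6 and 66.3 in P5 replicates 6, 8 and 9. The P5 samples were all above the E18 samples, and P5 replicate 8 was the nearest to them.

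**Figure D3:**
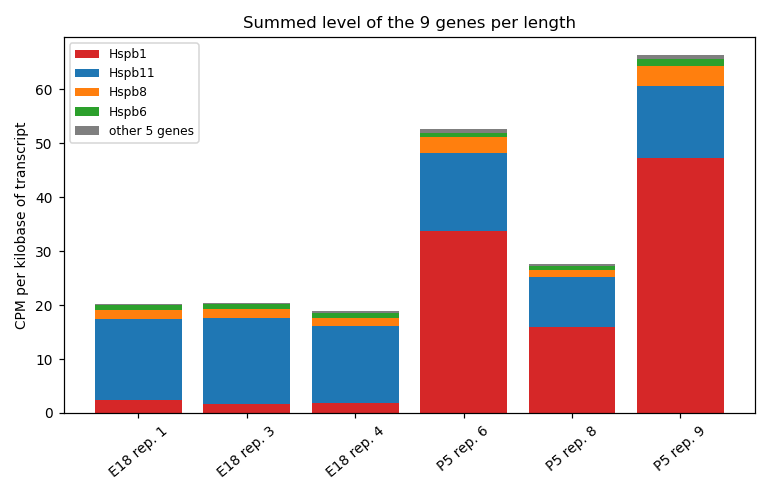
Level per length of the 9 genes, in CPM per kilobase of transcript (vertical axis, from 0), stacked for each of the 6 samples (horizontal axis). By the lengths used, Hspb11 (blue) makes up 74.0% to 77.5% of the bar in the E18 samples and Hspb1 (red) 57.7% to 71.3% in the P5 samples, where the bars differ in height from 27.6 to 66.3.

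The relative spread between samples was larger at P5 in 5 of the 8 genes with reads, Hspb1, Hspb6, Hspb8, Hspb11 and Cryab, and larger at E18 in 3, Hspb3, Hspb7 and Cryaa. The SD of Hspb1 was 48.6% of its mean at P5 and 17.2% at E18, where the medians over all tested genes were 14.8% and 7.94%, and 5.62% of tested genes had a larger relative SD at P5 than Hspb1. The SD of Hspb8 was 5.14% of its mean at E18 and 46.6% at P5, and that of Hspb3, with few reads, was 52.9% and 46.9%. The order of the P5 samples was replicate 8, then 6, then 9 in Hspb1, Hspb3 and Hspb8, and replicate 9 exceeded replicate 8 by 2.97-fold in Hspb1, 2.88-fold in Hspb3 and 2.86-fold in Hspb8.

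That order was common among genes that were higher at P5. Of the 1567 genes past the threshold and at least 2-fold higher at P5, 55.5% had it, against 22.1% of all tested genes. Replicate 8 was the lowest P5 sample in 73.8% of the 1567. The median ratio of replicate 9 to replicate 8 was 1.52 in these genes and 1.00 in all tested genes, so the ratios of Hspb1, Hspb3 and Hspb8 were above the usual size for either set.

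The 3 genes most like Hspb1 in pattern over the 6 samples, by Pearson's r of log2 of CPM plus 0.1, were Erap1 with 0.9998, Sv2b with 0.9990 and Vstm2a with 0.9989. These were picked as the highest among the tested genes whose mean reached 10 CPM. The samples also share the 2 ages, so the values only describe likeness. Sv2b, a membrane protein of synaptic vesicles, stood at 41.5, 32.7 and 35.0 CPM in E18 replicates 1, 3 and 4 and at 141, 95.4 and 173 CPM in P5 replicates 6, 8 and 9. Erap1, an aminopeptidase that trims peptides for antigen presentation, ran from 3.98 to 4.56 CPM at E18 and from 12.1 to 21.3 CPM at P5. In both of these genes, as in Hspb1, E18 replicate 3 was the lowest sample, and P5 replicate 8 was the lowest and replicate 9 the highest of the P5 samples.

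The heat shock factors drive transcription of heat shock genes, and Hsf1 is the main one in the response to heat. Hsf1 was higher at E18, with 20.4, 18.03 and 20.2 CPM against 14.2, 12.9 and 12.9 CPM at P5 (log2 fold change 0.55 ± 0.111 (SE), adjusted p = 0.00496 in edgeR), while Hspb1 was higher at P5. Hsf2 stood at 84.4 ± 5.06 and 77.4 ± 9.33 CPM (SD, n = 3 each) and did not pass (adjusted p = 0.375 in edgeR). Hsf4, which is known for its role in the lens, was low and was lower at E18, at 0.458, 0.508 and 0.707 CPM against 2.14, 1.26 and 3.21 CPM (log2 fold change −1.98 ± 0.370 (SE), adjusted p = 0.00360 in edgeR). Its P5 samples had the same order as those of Hspb1. Of the 4 factors tested, 1 was higher and 1 was lower.

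Of 12 genes that are commonly induced together by heat, 1 was higher at E18 and none was lower by edgeR's test, and the median log2 fold change was 0.02. At an unadjusted p of 0.05 the count of lower genes was also 0, as it was by DESeq2, and it was 1 without P5 replicate 8. The one called, Fkbp4, a co-chaperone of Hsp90, stood at 230.3 ± 8.86 CPM at E18 and 184 ± 12.7 CPM at P5 (SD, n = 3 each, adjusted p = 0.0166 in edgeR). The inducible Hsp70 genes Hspa1a and Hspa1b, which are near-identical so that the split of reads between them is uncertain, were at 7.97 ± 2.09 and 6.09 ± 2.69 CPM at E18 and at 8.93 ± 2.46 and 6.41 ± 1.11 CPM at P5. Neither passed (adjusted p = 0.626 and 0.855 in edgeR).

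Hsp70, Hsp90 and the chaperonins refold proteins with the energy of ATP. Of the 15 Hsp70 and Hsp110 genes, 1 was higher at E18 and 2 were lower. The constitutive Hspa8 was at 2208 ± 145 CPM at E18 and 2424 ± 342 CPM at P5 (SD, n = 3 each) and did not pass (adjusted p = 0.365 in edgeR). Hspa5, the Hsp70 of the endoplasmic reticulum, was higher at E18 with 558 ± 22.6 against 378 ± 82.5 CPM (adjusted p = 0.0136 in edgeR). Hspa2 was lower at E18 with 9.36 ± 0.966 against 22.5 ± 7.83 CPM (log2 fold change −1.26 ± 0.244 (SE), adjusted p = 0.00415 in edgeR), and Hspa4l was lower with 145 ± 1.75 against 182 ± 14.3 CPM (adjusted p = 0.0188 in edgeR). None of the 4 Hsp90 genes passed in edgeR, and the count was 0 at an unadjusted p of 0.05 and by DESeq2 too, while 1 was lower at E18 without P5 replicate 8. Of the 10 chaperonin genes listed, 1 was higher at E18. This was Cct4, a subunit of the ring that folds actin and tubulin, with 301 ± 5.78 against 235 ± 14.3 CPM (adjusted p = 0.00894 in edgeR).

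Hsp40 proteins deliver clients to Hsp70, and 9 of the 16 Hsp40 genes listed passed the test, 3 higher and 6 lower at E18. Dnaja4 rose from 5.30 ± 0.417 CPM at E18 to 11.7 ± 1.18 CPM at P5 (log2 fold change −1.15 ± 0.144 (SE), adjusted p = 0.000705 in edgeR). Dnajb4 rose from 43.1 ± 3.16 to 76.0 ± 5.54 CPM (log2 fold change −0.82 ± 0.0995 (SE), adjusted p = 0.000621 in edgeR). Dnajb9, which works in the endoplasmic reticulum with Hspa5, was higher at E18, at 31.7 ± 3.27 against 18.8 ± 1.34 CPM (adjusted p = 0.00159 in edgeR).

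BAG proteins release clients from Hsp70, and Sqstm1, also called p62, carries tagged cargo to autophagy. Of the 8 genes of this list, 1 was higher at E18 and 3 were lower. Bag6 was higher at E18, at 235 ± 16.4 against 162 ± 8.70 CPM (adjusted p = 0.00239 in edgeR). Sqstm1 was lower, at 277 ± 15.7 against 395 ± 36.5 CPM (adjusted p = 0.00361 in edgeR), and Bag2 was lower, at 15.0 ± 0.742 against 22.7 ± 4.76 CPM (adjusted p = 0.0163 in edgeR).

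Hspb1 is phosphorylated through the p38 pathway, which breaks up its large oligomers. The list of 6 kinase genes also holds Prkd1, which is outside that pathway. Of these 6 genes, 2 were higher at E18 and 0 were lower by edgeR's test, also at an unadjusted p of 0.05 and by DESeq2. The p38 kinase Mapk11 was at 81.1 ± 5.27 against 50.9 ± 7.51 CPM (adjusted p = 0.00295 in edgeR), and Mapkapk2, which acts on Hspb1 directly, at 55.0 ± 4.20 against 37.2 ± 6.59 CPM (SD, n = 3 each, adjusted p = 0.0102 in edgeR). Both thus had the direction opposite to that of Hspb1. Mapk14, another p38 kinase, was at 45.6 ± 2.17 and 44.8 ± 5.75 CPM and did not pass (adjusted p = 0.861 in edgeR). The testis gene Hspb9, a small heat shock gene outside the 9, was at 0.531 ± 0.0714 and 0.546 ± 0.131 CPM and did not pass (adjusted p = 0.917 in edgeR).

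Over all of these chaperone, partner and crystallin lists, 99 different genes were in the table and 87 were tested, of which 12 (13.8%) were higher at E18 and 15 (17.2%) were lower by edgeR, against 20.8% and 22.5% of all tested genes, with a median log2 fold change of −0.03. None of the 87 except Cryba4, at −2.90, had a log2 fold change below −2, while Hspb1 stood at −4.01.

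**Figure D4:**
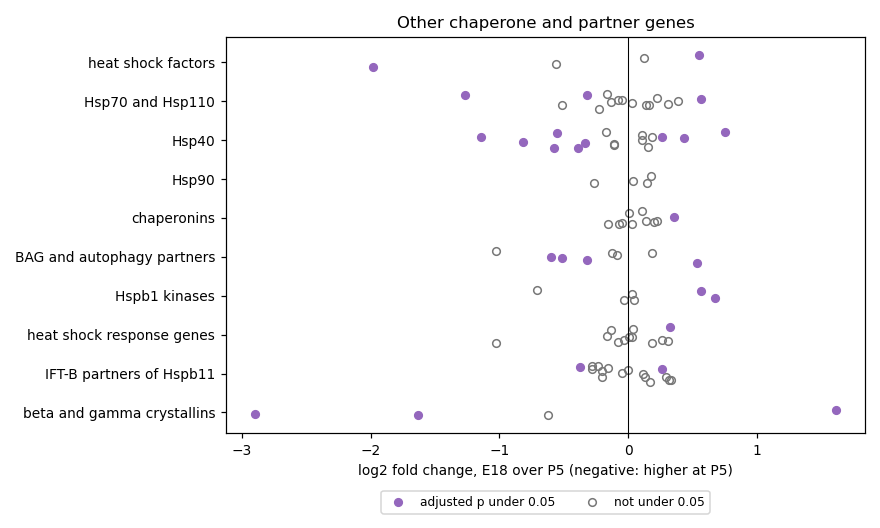
Log2 fold change of E18 over P5 (horizontal axis, negative when higher at P5) of each tested gene in 10 lists of chaperones, partners and other crystallins (vertical axis, with a small random offset within each list). Filled points passed an adjusted p of 0.05 in edgeR's quasi-likelihood test and open points did not, and a gene in 2 lists is drawn in both. Most points lie within 1 unit of 0, and the lowest, at −2.90, is Cryba4.

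Other cell types that contain small heat shock proteins were looked for by their markers. The 12 genes of endothelial cells, pericytes and smooth muscle summed to between 19.8 and 76.5 CPM at E18 and between 15.7 and 20.01 CPM at P5, and Kdr, at 48.8 ± 30.3 CPM at E18 and 7.60 ± 3.34 CPM at P5 (SD, n = 3 each), made up most of the E18 sum. Of the 9 tested, 2 were higher and 2 lower at E18. The higher ones were Kdr (adjusted p = 0.00545 in edgeR) and Cnn1, in the direction opposite to that of Hspb1. Kdr stood at 69.5, 62.9 and 14.1 CPM in E18 replicates 1, 3 and 4, so replicates 1 and 3 carried most of its E18 level. Cnn1 was at 0.720 ± 0.0839 CPM at E18 and 0.279 ± 0.0715 CPM at P5 (adjusted p = 0.00761 in edgeR). The lower ones moved with Hspb1: the pericyte gene Rgs5 was at 0.112 ± 0.0186 against 2.33 ± 0.810 CPM (log2 fold change −4.36, adjusted p = 0.000166 in edgeR), and the endothelial gene Pecam1 was at 0.686 ± 0.181 against 2.41 ± 0.293 CPM (adjusted p = 0.0012 in edgeR). In P5 replicates 6, 8 and 9 Rgs5 was at 2.44, 1.47 and 3.08 CPM, the order seen for Hspb1. Genes of the RGC list had that order too, such as Slc17a6 at 762, 531 and 939 CPM in these samples. Of the 5 RGC genes lower at E18, Slc17a6, Thy1, Nefl and Nefh had it and Pou4f3 did not. The defining genes Cdh5 and Tie1 of endothelium and Kcnj8 of pericytes had means under 0.05 CPM at both ages, and the smooth muscle gene Myh11 was at 0.903 ± 0.0836 and 0.918 ± 0.185 CPM. The part of these cells in the Hspb1 difference was not tested.

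The 12 markers of Müller glia and astrocytes summed to between 529 and 623 CPM at E18 and between 531 and 554 CPM at P5, with 2 genes higher and 2 lower at E18 of 10 tested. Glul, glutamine synthetase, made up most of the E18 sum with 320 ± 6.91 CPM and was at 251 ± 21.3 CPM at P5 (SD, n = 3 each). The 2 higher genes were Glul (adjusted p = 0.0138 in edgeR) and Vim, in the direction opposite to that of Hspb1. Vim was at 87.6 ± 5.87 against 38.7 ± 8.31 CPM (log2 fold change 1.18, adjusted p = 0.000853 in edgeR). The 2 lower genes moved with Hspb1. Clu, which encodes the secreted chaperone clusterin, was at 22.6, 23.7 and 29.6 CPM at E18 and at 54.7, 41.9 and 77.1 CPM in P5 replicates 6, 8 and 9, the order seen for Hspb1 (log2 fold change −1.19, adjusted p = 0.00282 in edgeR). Dkk3 was at 123 ± 28.5 against 184 ± 17.5 CPM (SD, n = 3 each, adjusted p = 0.0187 in edgeR). Gfap, which defines astrocytes, was at 0.0738 ± 0.0365 and 0.0883 ± 0.0304 CPM, and Aqp4 at 0.372 ± 0.0465 and 0.268 ± 0.0462 CPM (SD, n = 3 each). The part of glia in the Hspb1 difference was not tested. The 11 microglial markers summed to between 1.79 and 3.32 CPM over all samples, and the 12 photoreceptor markers to between 4.37 and 12.9 CPM. Amacrine markers summed to between 1494 and 1717 CPM at E18 and between 1792 and 2006 CPM at P5, with 6 of 11 higher and 1 lower at E18 by edgeR and a median log2 fold change of 2.57. Pax6 and Calb2, which RGCs also express, made up most of that sum. In other markers E18 replicates 1 and 3 stood apart from replicate 4: Tfap2b, a transcription factor of amacrine cells, was at 47.5, 119 and 1.62 CPM in E18 replicates 1, 3 and 4 and at 1.33 ± 0.283 CPM at P5 (SD, n = 3). Gad1, which makes the transmitter GABA, was at 19.2, 35.1 and 0.486 CPM in the same E18 samples and between 1.86 and 3.91 CPM at P5. In E18 replicate 3, where these were highest, Hspb1 was at its lowest, and its log2 fold change was −3.90 without that sample. The 14 genes of dividing cells summed to 375, 153 and 97.9 CPM in E18 replicates 1, 3 and 4 and to between 74.4 and 94.0 CPM at P5, with 9 higher at E18. In E18 replicate 1, where the dividing cell sum was highest, Hspb1 was at 2.17 CPM, the highest of its E18 values, and without that sample its log2 fold change was −4.14. Each of these refits kept another E18 sample with raised levels of the same genes. The part of amacrine and dividing cells in the Hspb1 difference was not tested.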

How the data were processed

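Per the labels and the paper's methods, the authors prepared libraries after ribosomal RNA depletion (the labels also say polyA RNA), processed them with CASAVA 1.8.2, aligned them with STAR (mm10) and counted reads per RefSeq gene with HT-seq. The deposited values used here are raw counts. The strand setting and the treatment of multi-mapping reads are not given in the sources used here, so counts of overlapping and near-identical genes are uncertain. The deposited table also holds normalized counts, ratios, fold changes and p-values of the authors' own comparison, which were not used.

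After TMM scaling, edgeR (4.0.16, R 4.3.3) was used for a quasi-likelihood test of the 16449 genes past filterByExpr, with Benjamini-Hochberg adjustment at 0.05. A further 2411 genes had no count. The SE of a log2 fold change was obtained as its absolute value divided by the square root of the F statistic of the quasi-likelihood test. CPM used the scaled library sizes, and lengths and coordinates came from the GENCODE annotation of mm10. Samples of the same age differed beyond counting error, with chi-square values per degree of freedom of 30.5 to 49.0 at E18 and 71.9 to 141 at P5, so none was counted as a repeat. The quasi-likelihood and DESeq2 fits were also run on simulated counts, as a check of the code only. Those counts had a far smaller share of changed genes than the share called here. Intervals and detection limits cover counting error only.

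The 9 genes and all lists were chosen with earlier results of these data known. The genes named are the 9, up to 3 genes per list past the threshold with the largest change and no overlap between ages, Hsf1, Hsf2, Bag3 and Hspa8, and the 3 most like Hspb1. Any other gene was named after its values were seen. The same search for Cryab was not made, because it had 3 to 5 reads per sample. Promoter windows were found for 7 of the 9 genes, not for Hspb2 and Cryab. Proteins were not compared here. Alternatives were upper-quartile factors, the likelihood ratio and exact tests of edgeR, DESeq2 1.42.0, library size alone, other filters, the longest transcript, 1 mismatch in the 3-unit element and the omission of each sample.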

Additional observations from a re-analysis of the deposited data

How the results depend on the processing

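The log2 fold change of Hspb1 ran from −4.35 to −3.63 over the 13 alternatives. Hspb3 ran from −2.56 to −1.74 and Hspb7 from −1.48 to −0.58 under the 12 that tested them, and over all 13 Hspb8 ran from −1.05 to −0.38, Hspb11 from 0.09 to 0.39 and Hspb6, which changed sign, from −0.23 to 0.14. The number of the 9 genes called was 1 with a filter of at least 1 CPM in 3 samples, which left Hspb3 untested. With 1 sample left out it ran from 1 to 3: Hspb3 was lost without E18 replicate 1 or 4 or P5 replicate 6 or 9, and Hspb8 was gained without P5 replicate 8. DESeq2 and the fit without a filter also called Cryaa, most of whose reads came from E18 replicate 4, and neither was rerun without that sample. Over the samples left out, genes called ran from 4575 to 8796, those higher at E18 from 2137 to 4135 and those lower from 2438 to 4661, with the lowest counts without E18 replicate 3. In the other lists, genes higher at E18 ran from 7 (without E18 replicate 3) to 15 and genes lower from 10 to 28 (without P5 replicate 8). Of the named genes of those lists, Ift46 also missed the threshold with library size alone and with no filter, and Bag2, Cryba1, Fkbp4, Hspa4l and Ift57 missed it only with a sample left out, while Hspa8 passed it without P5 replicate 8. The 3-unit element was found in 3 windows with 1 mismatch allowed. No paired analysis was possible because the 2 ages share no replicate number. The cause of these changes was not tested. Hspb2, Cryaa and Cryab had 0 to 23 reads per sample, which limits the precision of their values.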
